A study of Homo sapiens with 2 samples.

Results

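Chemokines and chemokine receptors were examined in 2 RNA samples of the established Ewing sarcoma line MHH-ES-1. The set held 10 genes, chosen by name: the ligand genes CXCL8, CXCL9, CXCL10, CXCL11, CXCL12, CXCL14, CCL2 and CCL5 and the receptor genes CXCR4 and ACKR3. All 17 probes whose platform annotation carries one of these symbols were taken, of 47323 probes on the array and of 20046 named genes. The genes were picked with earlier values of these arrays known, so their values are a description. The wild-type line was profiled on 1 Illumina bead array and its radiation-adapted derivative, whose short label names 4 Gy, on another. The dosing schedule, the interval before RNA extraction, and whether the adapted cells are a clone or a pool are not stated in the labels. With 1 array per group no p-value or error between cultures can be given, and every difference below compares these 2 RNA samples.

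Chemokines are small secreted proteins that attract cells along a gradient by binding G protein-coupled receptors. CXCL9, CXCL10 and CXCL11 share the receptor CXCR3, are induced by interferons and draw activated T cells and natural killer cells. CXCL8 draws neutrophils through CXCR1 and CXCR2, and CCL2 draws monocytes through CCR2. CXCL12 is the ligand of CXCR4, a receptor studied in Ewing sarcoma for its link to cell migration, and of ACKR3, an atypical receptor that works through arrestin and takes up CXCL12 and CXCL11 without classical G protein signalling.

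CXCL9, CXCL10 and CXCL11 are consecutive among the chemokine genes of chromosome 4, and CXCL8 lies on the same chromosome. The 250 bases before the annotated start of these genes are shown because their transcripts differed so widely on the arrays, as described after them. The sequences are those of RefSeq (GRCh38.p14), 5′ to 3′ on each gene's strand. The windows are chr4:76007510-76007759 on the minus strand for CXCL9, chr4:76023498-76023747 on the minus strand for CXCL10, chr4:76036071-76036320 on the minus strand for CXCL11 and chr4:73740319-73740568 on the plus strand for CXCL8. Capitals mark matches to the searched motifs.
CXCL9: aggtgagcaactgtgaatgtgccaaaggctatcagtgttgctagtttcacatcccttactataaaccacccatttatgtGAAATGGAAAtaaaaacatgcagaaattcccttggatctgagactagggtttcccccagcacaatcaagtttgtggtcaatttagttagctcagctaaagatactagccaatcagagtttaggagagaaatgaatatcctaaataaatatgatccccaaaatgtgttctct
CXCL10: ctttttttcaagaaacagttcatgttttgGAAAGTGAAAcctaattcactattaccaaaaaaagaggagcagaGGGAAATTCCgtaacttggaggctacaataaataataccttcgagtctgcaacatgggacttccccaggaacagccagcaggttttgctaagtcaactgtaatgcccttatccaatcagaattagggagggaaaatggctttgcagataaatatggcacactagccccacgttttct
CXCL11: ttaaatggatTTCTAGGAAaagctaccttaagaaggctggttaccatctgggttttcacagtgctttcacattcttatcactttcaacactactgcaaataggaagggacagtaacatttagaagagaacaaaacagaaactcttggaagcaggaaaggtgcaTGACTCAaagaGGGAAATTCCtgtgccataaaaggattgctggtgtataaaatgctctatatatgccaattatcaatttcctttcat
CXCL8: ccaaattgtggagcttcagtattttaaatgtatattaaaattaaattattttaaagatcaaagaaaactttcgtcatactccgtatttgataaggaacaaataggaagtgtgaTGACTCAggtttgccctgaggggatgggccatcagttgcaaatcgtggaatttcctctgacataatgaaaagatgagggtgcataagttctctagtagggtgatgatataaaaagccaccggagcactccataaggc

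Both strands were searched for 4 motifs: GAAA followed after any 2 bases by GAAA, the core of the interferon-stimulated response element, GGG followed after any 3 bases by TTCC, a form of the NF-kB site, TTCNNNGAA, the core bound by STAT dimers, and TGANTCA, the AP-1 site. Of 35116 promoter windows of this length, 3.02% held the first motif, 5.67% the NF-kB form, 6.57% the STAT core and 6.57% the AP-1 site. The CXCL10 window held GAAAGTGAAA from 221 to 212 bases before the start and GGGAAATTCC from 177 to 168 bases before it. The CXCL9 window held GAAATGGAAA from 171 to 162 bases before the start. The CXCL11 window held GGGAAATTCC from 76 to 67 bases before the start, the STAT core TTCTAGGAA from 240 to 232 and the AP-1 site TGACTCA from 87 to 81. The CXCL8 window held TGACTCA from 137 to 131 bases before the start. No matches overlapped within these 4 windows. Of the 10 genes, 7 had a promoter in the table. Among the others of the 7, the CXCL14 window held the AP-1 site, while none of the 4 motifs was found in the CXCL12 window or in the 3 windows of CXCR4. A match describes letters and does not show that a factor binds there. Each pattern covers only some forms of its site, so the lack of a match does not show that a window holds no site.

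Signals are mean bead intensities as deposited, with no background subtracted. Probes with a detection p-value under 0.01, which sets them against the negative controls of their array, were taken as detected, and the dimmest detected probe had a signal of 158.2 on the wild-type array and 158.1 on the radiation-adapted array. The median probe signal was 140.3 and 142.4, and 16220 (34.3%) and 17718 (37.4%) of the probes were detected. Ratios are of background-corrected, quantile-normalized values (limma's neqc, offset 16), radiation-adapted over wild type. For a gene that only 1 array detected, the other array was set to no less than the value of its dimmest detected probe. The fold is then a bound, written "at least", and holds under this processing only. Some alternatives described below gave smaller values. The 1 spread that could be measured, between different probes of a gene on the same arrays, had an SD of 0.45 in the log2 ratio over 2269 genes. It leaves out any difference between cultures. In bulk RNA, fewer cells that express a gene and less RNA per cell cannot be told apart.

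In the radiation-adapted cells 4 of the 10 genes (CCL2, ACKR3, CXCL10 and CXCL8) exceeded the wild type by 2-fold or more, and 0 were lower by as much. CXCL14, CCL5 and CXCR4 were detected only on the radiation-adapted array and close to its limit, CXCL12 only on the wild-type array and close to its limit, and CXCL9 and CXCL11 on neither. Over all 11352 named genes detected on either array, 12.4% were higher by 2-fold or more and 10.3% lower by 2-fold or more. The 10 genes were chosen with this contrast known, so nothing is read from their share. The count of 4 became 7 under the authors' processed table, median scaling, no scaling, a detection limit of 0.05 or no detection filter, each of which brought CXCL14, CCL5 and CXCR4 past 2-fold, and it became 2 (CXCL10 and CXCL8) when detection was required on both arrays.

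**Figure D1:**
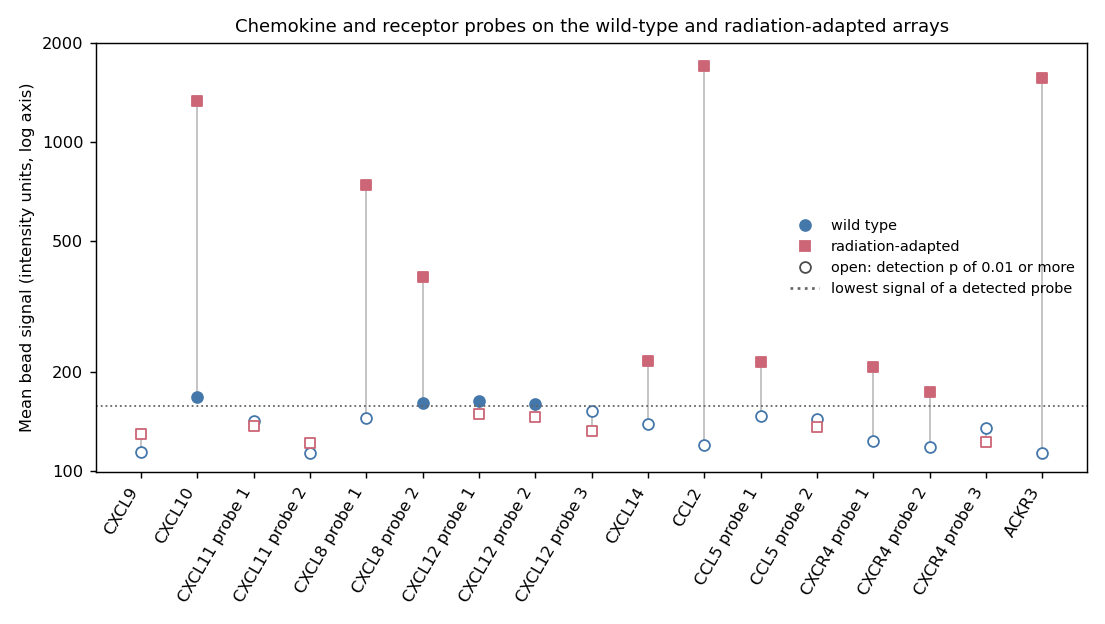
Mean bead signal (intensity units, log axis) of each of the 17 probes on the wild-type array (circles) and the radiation-adapted array (squares), filled where the detection p was under 0.01; the dotted line is the lowest signal of a detected wild-type probe, 158.2. The squares of CCL2, ACKR3, CXCL10 and CXCL8 stand far above the line, while no wild-type circle lies above 167.5.

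The CXCR3 ligands did not move together. CXCL10 had a signal of 167.5 in the wild type (detection p-value 0.0026) and 1334.0 in the radiation-adapted cells. The wild-type signal was only just above that array's detection limit, and the adapted signal was far above it. The ratio was 19.7-fold (log2 ratio 4.30), the 9th highest of the 9188 genes measured on both arrays. Without background subtraction the deposited signals differed by 7.96-fold, so the size of the ratio depends on how the wild-type value near background is treated. The signal of CXCL9 was 114.6 in the wild type and 129.9 in the radiation-adapted cells, both not well above background (detection p of 0.956 and 0.478). Probe 1 of CXCL11 gave 142.4 and 136.8 and probe 2 gave 113.8 and 121.6, and neither probe was detected on either array. Thus of 3 neighbouring genes for ligands of 1 receptor, CXCL10 was bright in the adapted cells and its flanking relatives were not detectable. As the sequences above show, the response element core was matched before both CXCL9 and CXCL10, and the NF-kB form before both CXCL10 and CXCL11. Whether any of these matches has a part in the signals was not tested. Non-chemokine neighbours did not share the difference: the 5 detected genes on each side of CXCL10, from THAP6 to CCNI, had a median log2 ratio of 0.28 and a highest ratio of 1.68.

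CCL2, the monocyte attractant, had a signal of 120.5 in the wild type, where it was not detected (detection p-value 0.844), and 1700.2 in the radiation-adapted cells. It was at least 32.1-fold higher (log2 bound 5.0). The deposited signals themselves differed by 14.1-fold. The 10 nearest detected genes, from PSMD11 to NLE1, had log2 ratios from -0.65 to 2.10, with a median of 0.01. Of these, 1 was at least 2-fold higher and 0 were lower by as much, against 12.4% and 10.3% of all detected genes. CCL7, CCL11, CCL8 and CCL1, the next chemokine genes after CCL2 that were named here, were not detected on either array, with signals from 130.1 to 147.2 in the adapted cells.

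CXCL8, the neutrophil attractant, had 2 probes, and they differed in size and not in direction. Probe 1 had a signal of 144.9 in the wild type, where it was not detected, and 737.6 in the radiation-adapted cells, a ratio of at least 11.97-fold. Probe 2 had a signal of 161.6 in the wild type (detection p-value 0.00779) and 389.1 in the adapted cells, a measured ratio of 4.68-fold. The log2 values of 3.58 and 2.23 lie farther apart than the SD of 0.45 between probes of a gene. The first, brighter probe stands for the gene in the counts.

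CCL5, which attracts T cells and monocytes, and CXCL14, a chemokine made in many resting epithelia, were near the limit of detection. Probe 1 of CCL5 had a signal of 147.4 in the wild type, not detected, and 214.5 in the adapted cells, a ratio of at least 1.84-fold. Probe 2 of CCL5, with 144.5 and 136.7, was detected on neither array. The probes of CCL5 therefore disagree on whether its transcript was present. The 10 detected neighbours of CCL5 on chromosome 17, from SLFN11 to MYO19, had a median log2 ratio of -0.94. Of these, 5 were at least 2-fold lower, where 10.3% of all detected genes were, and 0 were higher by as much. What lies behind the lower values of these neighbours was not tested. CXCL14 had a signal of 139.5 in the wild type, not detected, and 216.8 in the adapted cells, a ratio of at least 1.88-fold.

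The CXCL12 axis differed at the receptor end. ACKR3 had a signal of 113.5 in the wild type, where it was not detected (detection p-value 0.965), and 1562.1 in the radiation-adapted cells. It was at least 29.0-fold higher (log2 bound 4.86), and the deposited signals differed by 13.8-fold. The 10 detected neighbours on chromosome 2, from UGT1A3 to UBE2F, had a median log2 ratio of 0.18 and a highest ratio of 1.26. CXCR4 had 3 probes. Probe 1 had a signal of 123.6 in the wild type and 206.9 in the adapted cells, at least 1.70-fold higher, and probe 2 had 118.2 and 173.8, at least 1.11-fold higher. Both were detected on the adapted array only, and probe 3, with 135.4 and 122.4, was detected on neither. CXCR4 was thus measurable in the radiation-adapted cells, by 2 of 3 probes.

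CXCL12, the ligand of both receptors, was the 1 gene of the set with a lower bound. Its probes had signals of 163.7, 160.5 and 151.9 in the wild type and 149.2, 146.6 and 132.1 in the adapted cells. Probes 1 and 2 were detected in the wild type and not in the adapted cells, at least 1.34-fold and 1.25-fold lower, and probe 3 was not detected on either array. No adapted signal passed the detection limit of 0.01, so the sizes at the 3 probes cannot be compared. Probe 1 had an adapted detection p-value of 0.0351, under the alternative limit of 0.05, where the log2 ratio of CXCL12 was -0.69. Every wild-type signal lay within a few units of the detection limit or below it.

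**Figure D2:**
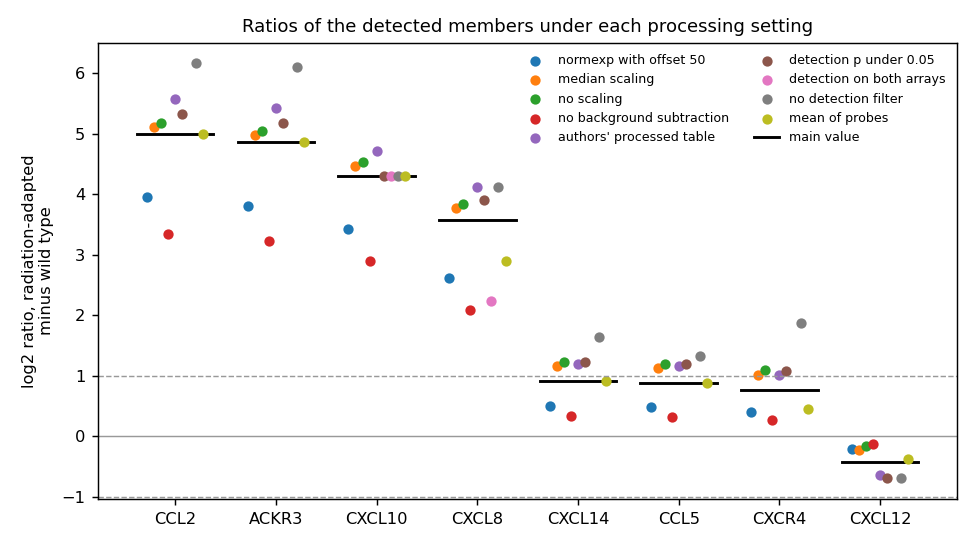
Log2 ratio (adapted minus wild type) of the 8 detected genes under the main processing (black line) and under each of 9 alternatives (points); dashed lines mark 2-fold and the grey line is 0. CCL2 ranged from 3.35 to 6.16, ACKR3 from 3.22 to 6.10, CXCL10 from 2.89 to 4.72 and CXCL8 from 2.09 to 4.12, while CXCL14, CCL5 and CXCR4 fell on either side of 2-fold.

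The plot of ratios by setting separates the genes into those whose 2-fold call held under every setting that could measure them and those whose call did not. CXCL14 ranged from 0.34 to 1.64, CCL5 from 0.32 to 1.32 and CXCR4 from 0.27 to 1.88, on either side of 2-fold. CXCL12 ranged from -0.69 to -0.13 and stayed within 2-fold in every setting that gave a value. No direction turned for any of the 8 genes where the 9 alternatives gave a value. For genes detected on 1 array only, that detection largely fixed the direction. With detection required on both arrays, CCL2, ACKR3, CXCL14, CCL5, CXCR4 and CXCL12 gave no value. With 2 arrays, likeness of pattern is only closeness in the order of ratios. Among genes measured on both arrays, KIF1A, a kinesin gene (19.9-fold), and OLFML3 (21.4-fold) stood next above CXCL10, and ADM (17.2-fold) and MAP7D2 (17.2-fold) next below it. Bounds set against 1 floor have no order of their own, so no such place is given for CCL2.

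Most other chemokine genes were not detected in either sample. Of 40 other ligand genes 38 had a named probe, and 33 of these were not detected on either array, with no signal above 149.0 in the wild type or 154.2 in the adapted cells. Of the 5 detected, 3 were higher by 2-fold or more and 0 lower by as much, where 12.4% and 10.3% of all detected genes were, and their median log2 ratio was 1.28, with CXCL3 at its bound, against -0.01 for all detected genes. A gene detected only where it is high had to differ, so the share is no support. CXCL16, a membrane-anchored chemokine, had signals of 184.9 and 518.8 and was 4.59-fold higher, although its other probe (135.5 and 131.0) was detected on neither array. CCL20, the ligand of CCR6, had signals of 140.1 and 256.8 and was at least 2.64-fold higher. CXCL1, a neutrophil attractant that lies close to CXCL8, had signals of 141.5 and 245.3 and was at least 2.42-fold higher. CCL20 and CXCL1 did not pass 2-fold with normexp and an offset of 50 or without background subtraction. PPBP, a platelet chemokine gene, was the lowest at 190.5 and 169.8 (log2 ratio -0.78). CXCL3, with 158.0 and 158.9, crossed the limit on the adapted array alone and has no fold. CXCL1, CXCL3 and related genes are close relatives, and their probes were not checked for shared sequence.

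**Figure D3:**
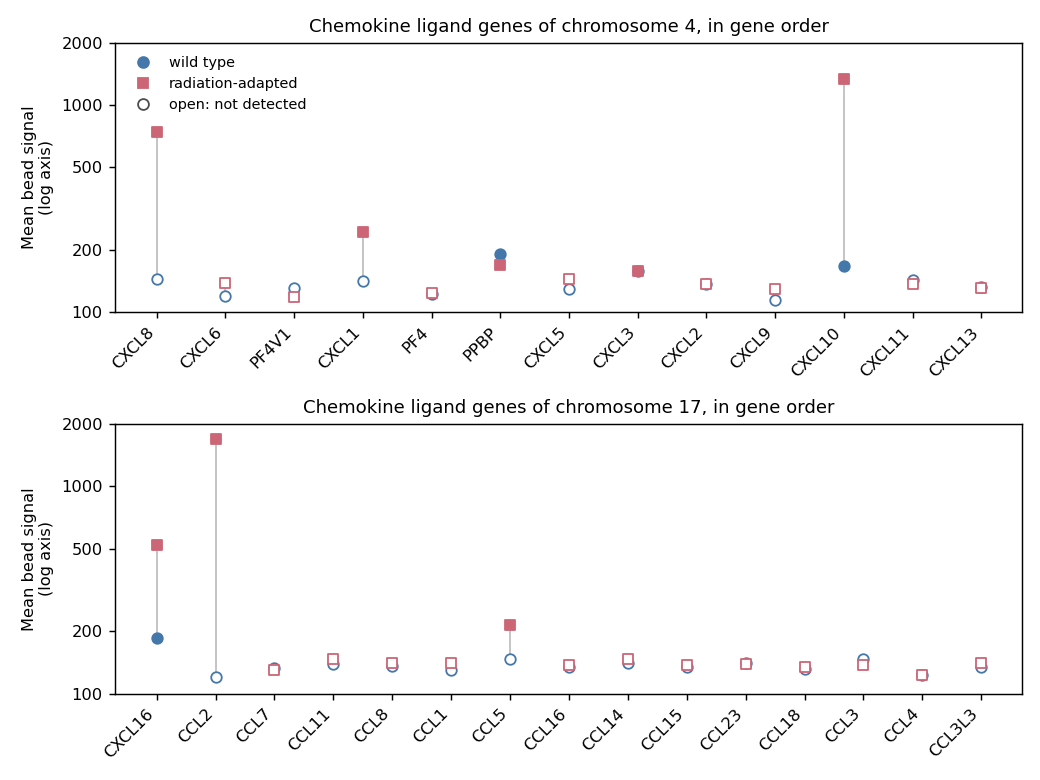
Mean bead signal (log axis) of the brightest or detected probe of each named chemokine ligand gene on chromosome 4 (13 genes) and chromosome 17 (15 genes), in gene order by RefSeq, for the wild-type (circles) and radiation-adapted (squares) array; filled symbols were detected. In the adapted cells 5 genes on chromosome 4 and 3 on chromosome 17 were detected, and CXCL10 stands between CXCL9 and CXCL11, which were not detected.

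On chromosome 4, 5 of 13 chemokine genes were detected in the radiation-adapted cells and 2 in the wild type by the probe that stands for each gene. On chromosome 17, 3 of 15 were detected in the adapted cells and 1 in the wild type. Of all 20046 named genes, 9188 were detected in both samples, 1532 in the adapted cells alone and 632 in the wild type alone. The chromosome 4 counts depend on the limit and on the probe. CXCL3 differed little between the samples, with detection p-values of 0.01039 in the wild type and 0.00779 in the adapted cells. CXCL8 was counted by probe 1, while its probe 2 was detected in the wild type (detection p-value 0.00779).

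Apart from 1 probe of CCR6, the classical receptors named here for the higher ligands were not detected in either sample. CXCR3, the receptor of CXCL10, had signals of 120.5 and 129.1. CCR2, the receptor of CCL2, had signals of 133.2 and 140.6. CXCR1 (130.8 and 136.5) and CXCR2 (152.0 and 145.5), which bind CXCL8, were also not detected, nor was CXCR6, the receptor of CXCL16 (114.7 and 124.2). Of 21 other receptor genes, 19 had a named probe and 17 of these were detected on neither array. CCR10 was detected in the wild type only (161.3 and 148.6, at least 1.27-fold lower). CCR6 gave 8519.4 and 22405.7 at 1 probe, 2.89-fold higher, but its other probes (151.4 and 140.3, and 129.4 and 121.0) were detected on neither array. The receptor count of 1 higher gene out of 2 rests on that probe and is 0 without it.

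Genes of receptor signalling went both ways. Of 25 named members 22 were detected, with 5 (22.7%) higher by 2-fold or more, 2 (9.09%) lower by as much, and a median log2 ratio of -0.13, where 12.4% of all detected genes were higher and 10.3% lower by 2-fold or more. ADM, which encodes adrenomedullin, a peptide that ACKR3 also takes up, had signals of 186.3 and 1567.8 and was 17.2-fold higher. PREX1, a Rac activator downstream of G protein subunits, was 2.95-fold higher (342.6 and 920.4), RAC2 2.61-fold higher and the focal adhesion kinase gene PTK2 2.28-fold higher, with GNG2, a G protein gamma subunit gene, at least 2.21-fold higher. Of these, GNG2 did not pass 2-fold with normexp and an offset of 50, GNG2 and RAC2 without background subtraction, and PTK2 with the mean of its probes. RGS16, which shortens G protein signalling, was 8.80-fold lower (883.1 and 218.9). GNAI2, the inhibitory G protein subunit that many chemokine receptors use, was 2.45-fold lower (2636.5 and 1181.6). ARRB1, an arrestin gene, had log2 ratios of -0.21 at its brightest probe and of -1.47 and -1.63 at its others. MIF, an alternative ligand of CXCR4, had signals of 20504.1 and 11405.3 (log2 ratio -0.66), and CD74, its receptor, was not detected.

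Of 16 genes for processing and presentation, 11 were detected, 2 (18.2%) higher by 2-fold or more, near the 12.4% of all detected genes, and 0 lower by as much, against 10.3% (median 0.23). The heparan sulphate proteoglycan genes SDC2 and SDC4, whose sugar chains can hold chemokines at the cell surface, were higher, SDC2 by at least 2.81-fold and SDC4 by 2.31-fold, though neither passed 2-fold with normexp and an offset of 50 or without background subtraction. NDST1, a heparan sulphate sulphotransferase gene, was the lowest at a log2 ratio of -0.30. ADAM10 and ADAM17, proteases that release CXCL16 from the membrane, had log2 ratios of 0.86 and 0.10 at their brightest probes. DPP4, which trims CXCL10 and CXCL12, was not detected. The set of genes for inducers of these chemokines had 18 named members. Of 12 detected, 3 were higher by 2-fold or more and 0 lower by as much, against 12.4% and 10.3% of all detected genes (median 0.54, with IL1B, detected on the adapted array only and without a fold, at its bound). IL1A, a cytokine gene upstream of NF-kB, had signals of 114.4 and 565.9 and was at least 8.58-fold higher. The RNA sensor gene IFIH1 was at least 4.44-fold higher, and the interferon regulator gene IRF7 was 3.39-fold higher, short of 2-fold without background subtraction. NFKB1 (log2 ratio 0.95) and IRF1 (0.87) were below 2-fold, and IRF3 was the lowest at -0.77. The interferon genes IFNB1 and IFNG and the cytokine genes TNF and IL6 were not detected on either array, with signals from 112.7 to 148.1 in the wild type and from 115.2 to 143.4 in the adapted cells.

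**Figure D4:**
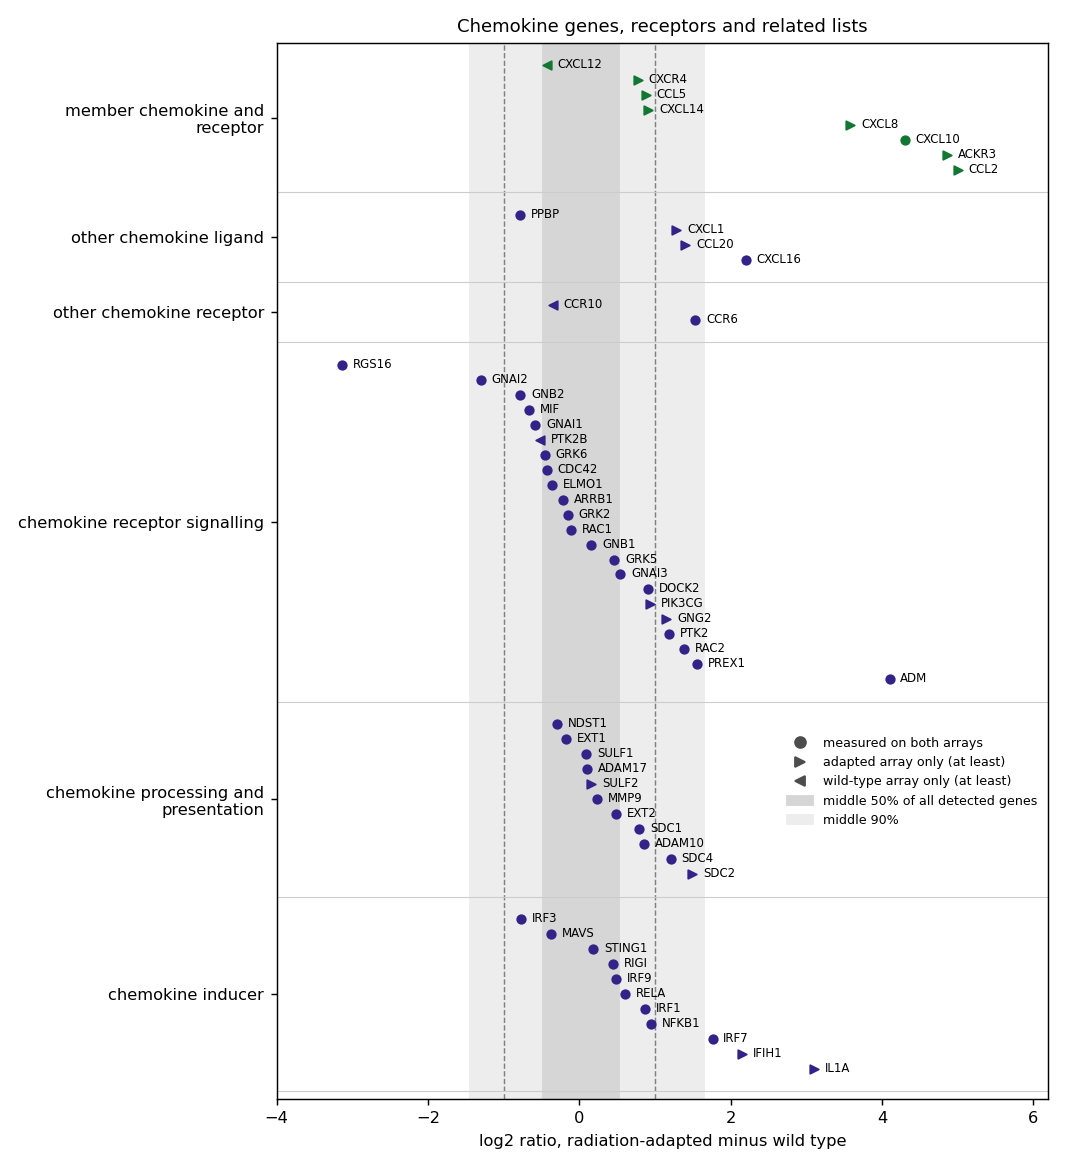
Log2 ratio (adapted minus wild type) of each detected gene with a fold in the 10-gene set (green) and in the related lists (blue); circles were measured on both arrays, triangles are bounds, dashed lines mark 2-fold, and grey bands hold the middle 50% (-0.48 to 0.52) and 90% (-1.45 to 1.65) of all 11352 detected genes. CCL2, ACKR3, CXCL10, CXCL8, ADM, IL1A, CXCL16, IFIH1 and IRF7 lie to the right of the wider band and RGS16 to the left.

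The identity of the line was checked with markers of Ewing sarcoma and of other cells that make chemokines. All 7 named Ewing sarcoma markers were detected on both arrays, among them CD99 (4248.1 and 2272.0) and NKX2-2 (1943.9 and 6001.3). Of 9 named leukocyte markers, 5 were detected on each array, and the summed signal of all 9, background included, was 12010 in the wild type and 2382 in the adapted cells. ITGB2 had 10563.9 and 641.7. LYZ (204.1 and 158.6) and CD79A (236.7 and 174.0) were detected on both arrays. CORO1A (212.4 and 154.6) was detected in the wild type only, and ITGAM (133.1 and 144.3) on neither array. PTPRC (142.3 and 136.6) and CD3E (119.4 and 129.9) were also detected on neither array. CD14 only just crossed the limit in the adapted cells (151.9 and 160.6), whereas CD68 had 249.8 and 681.6. Of 5 endothelial markers 0 were detected on either array (summed signal 642.7 and 680.4). Of 6 fibroblast markers, 4 were detected in the wild type and 2 in the adapted cells (summed signal 1498 and 2873). DCN (554.4 and 126.1), LUM (319.9 and 129.1) and FAP (176.4 and 139.2) were detected in the wild type only. THY1 (145.5 and 1509.8) was detected in the adapted cells only, COL1A1 (186.9 and 813.7) on both arrays and PDGFRA (114.9 and 154.9) on neither. Of 5 epithelial markers, 1 was detected in the wild type, KRT8 (273.7 and 150.6), and 0 in the adapted cells (summed signal 784.8 and 685.2). The part of the fibroblast, leukocyte and epithelial markers in the chemokine values was not tested.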

How the data were processed

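Per the labels' protocols, Trizol-extracted total RNA was amplified into biotinylated cRNA for Illumina arrays. Per the file headers, the deposited table holds a mean bead intensity and a detection p-value for each of 47323 probes; the values show no background subtraction or scaling. A processed intensity table by the authors, whose columns share one distribution (lowest value -28.6, median 10.6), served as an alternative, floored at 16. No source used here names the software behind these tables. Platform annotation named 1 gene for 30113 probes; 8 named several genes and 17202 were left unnamed, and both kinds stayed out of gene values.

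Background correction and quantile normalization used limma 3.58.1 (neqc, offset 16) in R 4.3.3, tested on simulated arrays. The simulation changed only probes well above background, so it does not cover ratios of probes as dim as the wild-type members. A gene took its brightest probe detected (p under 0.01) on either array. With 1 array per group genes were counted by a 2-fold rule, without tests, and the number of arrays limits the precision. Genes named were all 10 members, list genes past 2-fold with each list's lowest and highest, and neighbours of CXCL10 in rank. Members and lists were chosen with earlier results of these data known. RefSeq GRCh38.p14 gave promoters and gene order; the files name no build. Further genes named for their role as receptors, ligands, proteases or inducers were chosen after their values were seen.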

Additional observations from a re-analysis of the deposited data

How the results depend on the processing

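The 9 alternatives changed sizes and counts but no direction of the 8 detected members where they gave a value. For members detected on 1 array only, the direction was largely fixed by that detection. As a value without replicates, a log2 ratio counted as moved when it shifted by more than the probe SD of 0.45. Without background subtraction the ratios of CXCL10, CXCL8, CCL2 and ACKR3 were 2.89, 2.09, 3.35 and 3.22, and with normexp and an offset of 50 they were 3.42, 2.61, 3.95 and 3.81; both settings keep or add a constant that shrinks ratios of dim probes. The authors' table gave 4.12 for CXCL8, 5.58 for CCL2 and 5.42 for ACKR3, and no detection filter gave 4.12, 6.16 and 6.10, since no bound was applied. CXCL8 was 2.23 with detection on both arrays and 2.90 as the mean of its probes, which differ. Members at least 2-fold higher numbered 4 in the main values, 7 with median scaling, no scaling, the authors' table, detection p under 0.05 or no detection filter, and 2 with detection on both arrays. Other ligands numbered 3 higher, but 1 with normexp and an offset of 50, without background subtraction or with detection on both arrays; the authors' table added 1 lower. The receptor count of 1 was 0 without the CCR6 probe, an alternative chosen after seeing the data. Signalling genes numbered 5 higher, but 3 without background subtraction and 7 with median scaling, no scaling or the authors' table, and 2 lower, but 3 with the mean of probes. Processing and presentation genes numbered 2 higher, 4 with median scaling or no scaling, 1 with detection on both arrays and 0 with normexp and an offset of 50 or without background subtraction. Inducers numbered 3 higher, 5 with median scaling or no scaling and 1 with detection on both arrays. For counts the cause was not tested beyond the construction of each setting. The all-gene median, -0.01 in the main values, was 0.16 with median scaling and 0.23 with no scaling, which took the share of 2-fold genes that were higher from 54.6% to 67.0% and 71.7%. With detection required on both arrays CCL2, ACKR3, CXCL14, CCL5, CXCR4 and CXCL12 give no value. Most wild-type member signals lie at background, which limits their ratios to bounds. No paired analysis was possible because each group had 1 array.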
